A study of Mus musculus with 24 samples.

Results

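Adipokines are proteins that fat cells release into the blood, through which adipose tissue reports its energy stores and acts on liver, muscle, brain and immune cells. White adipose tissue is the main source of adiponectin and leptin: circulating leptin follows fat mass and restrains feeding, whereas adiponectin promotes insulin sensitivity and is often low in obesity. In mice, resistin and adipsin are also made chiefly by fat cells, while retinol binding protein 4 and chemerin come from liver as well as from fat. The 6 adipokine genes *Adipoq*, *Lep*, *Retn*, *Cfd*, *Rbp4* and *Rarres2* were taken by their symbols from the 16730 genes of the deposited tables, and all 6 were among the 15020 genes that passed the filter on low counts.

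RNA was taken from whole epididymal fat pads (eWAT) of 24 males, 6 in each of 4 groups, and sequenced with QuantSeq, which reads the 3′ ends of transcripts, as 1 library per mouse. *Lama4* fl/fl mice, the littermate controls, carry loxP sites on both sides of exon 3 of *Lama4*, which encodes the laminin α4 chain of basement membranes. *Lama4* AKO mice carry the same floxed alleles and a Cre recombinase driven by the promoter of *Adipoq*, itself 1 of the 6 genes, and so active in fat cells but not in the vessels and immune cells of the pad. One set of each genotype was kept on chow for 20 weeks, to 24 weeks of age, and the other was fed a high-fat diet (HFD) with 45% fat for 20 weeks, from 6 to 26 weeks of age. The floxed allele was made in embryonic stem cells of C57BL/6N origin, and the chimeras were bred to C57BL/6J mice.

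Library totals lay between 5579590 and 18764516 counts. Levels are given as CPM, the count of a gene scaled to the size of its library with TMM factors, and the 6 genes together took 0.167% to 1.79% of a library's counts. The lowest count of any of them in a library was 486, for *Rbp4*, so counting error was small beside the spread between mice. The labelled tissue was borne out by its markers: all 10 adipocyte markers, among them *Plin1*, *Fabp4* and *Lipe*, had counts in every library, with a summed level of 18969 to 53080 CPM. Markers of epididymis and testis, which lie against this pad, summed to at most 17.6 CPM over the 2 of 12 that were measured. The reads of QuantSeq lie far from exon 3, so they do not show directly whether that exon was lost. Whether its loss lowered the level of the whole transcript was not tested, and the genotype labels were taken as given. The level of *Lama4* was 41.2 to 196 CPM in chow-fed *Lama4* fl/fl libraries (median 91.6) and 64.2 to 133 in those labelled chow-fed *Lama4* AKO (median 113). It was 32.3 to 135 CPM in HFD-fed *Lama4* fl/fl libraries (median 78.6) and 36.4 to 92.5 in those labelled HFD-fed *Lama4* AKO (median 44.2). It was thus not lower in those labelled *Lama4* AKO on chow.

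Libraries stood apart within groups, and this bears on every comparison. The first principal component of all genes held 45.8% of the variance, and among HFD-fed *Lama4* fl/fl mice it placed replicates 1, 2 and 5 at 48.2 to 73.5 and replicates 3, 4 and 6 at -9.88 to -76.1. Chow-fed *Lama4* fl/fl replicate 1 lay at -91.8, against -22.1 to 46.8 in the rest of its group. The study removed outlying mice, and the sources used here do not say which. An earlier analysis of these data inferred them to be HFD-fed *Lama4* fl/fl replicates 3, 4 and 6, chow-fed *Lama4* fl/fl replicate 3 and chow-fed *Lama4* AKO replicate 5, which remains an inference. Results are given for all 24 mice, with those of the other 19 beside the main comparisons.

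The genes lie on 5 chromosomes of the GRCm38 mouse reference and differ in structure. *Adipoq* (ENSMUSG00000022878) has 3 exons on the forward strand of chromosome 16, from 23146536 to 23158028, and *Lep* (ENSMUSG00000059201) has 3 on the forward strand of chromosome 6, from 29060220 to 29073877. *Retn* (ENSMUSG00000012705) has 4 exons on the forward strand of chromosome 8, from 3655770 to 3660110, and *Cfd* (ENSMUSG00000061780) has 5 on the forward strand of chromosome 10, from 79890853 to 79892655. *Rbp4* (ENSMUSG00000024990) has 6 exons on the reverse strand of chromosome 19, from 38116629 to 38125281. *Rarres2* (ENSMUSG00000009281) has 6 exons on the reverse strand of chromosome 6, from 48569696 to 48572789, where it overlaps *Lrrc61* on the other strand. That neighbour had 3744 counts over all 24 libraries against at least 1798 for *Rarres2* in each library, and whether the counting used strand is not given in the sources used here.

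Promoter windows of 300 bases, from 250 before to 50 after an annotated start, were taken from RefSeq on GRCm38.p6 for the 5 genes with an entry: *Adipoq*, *Lep*, *Retn*, *Cfd* and *Rbp4*. They were searched on both strands for the nuclear receptor motif AGGTCA, the C/EBP-type motif TTGCNNAA, the TATA box TATAAA, the E box CACGTG, the GC box GGGCGG and CCAAT, which are held by 16.3%, 10.8%, 13.6%, 7.15%, 35.7% and 37.4% of 32851 such windows. The sequences below are those of *Adipoq*, whose promoter also drives Cre in this model, of *Lep*, the adipokine with the clearest difference between groups, and of *Rbp4*, the gene that followed *Adipoq* most closely from mouse to mouse. Capitals mark the C/EBP-type motif, the TATA box and CCAAT on either strand.
Adipoq (chr16:23146286-23146585, forward strand): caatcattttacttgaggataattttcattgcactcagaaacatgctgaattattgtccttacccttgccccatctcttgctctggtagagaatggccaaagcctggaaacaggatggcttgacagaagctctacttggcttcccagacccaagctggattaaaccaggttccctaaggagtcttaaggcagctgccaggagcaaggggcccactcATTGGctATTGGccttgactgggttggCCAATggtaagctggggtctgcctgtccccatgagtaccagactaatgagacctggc
Lep (chr6:29059971-29060270, forward strand): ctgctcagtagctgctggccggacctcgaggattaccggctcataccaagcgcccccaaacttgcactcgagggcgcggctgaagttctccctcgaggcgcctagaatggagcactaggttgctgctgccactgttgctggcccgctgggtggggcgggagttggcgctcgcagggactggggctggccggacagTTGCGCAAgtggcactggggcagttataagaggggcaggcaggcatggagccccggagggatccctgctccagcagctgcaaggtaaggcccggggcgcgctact
Rbp4, second start (chr19:38124762-38125061, reverse strand): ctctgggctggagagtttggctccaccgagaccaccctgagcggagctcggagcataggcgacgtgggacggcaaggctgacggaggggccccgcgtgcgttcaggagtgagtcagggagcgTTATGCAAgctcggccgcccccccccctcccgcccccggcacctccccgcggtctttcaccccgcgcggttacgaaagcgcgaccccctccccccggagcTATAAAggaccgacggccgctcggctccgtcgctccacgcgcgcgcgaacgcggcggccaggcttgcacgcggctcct

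In the *Lep* window the C/EBP-type motif is the palindrome TTGCGCAA, which is held by 0.183% of all windows and begins at position -55 from the start. *Adipoq* holds CCAAT 3 times, on the reverse strand at -34 and -27 and on the forward strand at -7. The same *Lep* window has a GC box at -98. The second *Rbp4* start has a TATA box at -28 and, on the reverse strand, a C/EBP-type motif at -128 and GC boxes at -114 and -99, while the first *Rbp4* start has CCAAT on the reverse strand at -162. The windows of *Retn* and *Cfd* hold none of the motifs searched. No motif was shared by all of these windows, and a match of letters is not a measurement of binding.

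In *Lama4* AKO mice, all 6 adipokines had a lower level on HFD than on chow, and *Lep* fell. *Lep*, which encodes leptin, lay between 1214 and 5526 CPM in chow-fed *Lama4* AKO mice, with a median of 3073. After HFD it lay between 381 and 1549 CPM, with a median of 486. Of the HFD-fed mice, 5 of 6 were below the lowest chow-fed mouse, and only replicate 6, the highest of its group, lay within the range of the chow-fed mice. The fold change was 4.30 (log2 -2.10 ± 0.51, SE; 95% interval -3.16 to -1.05; adjusted p = 0.0170 with edgeR's quasi-likelihood test and Benjamini-Hochberg adjustment). A gene was called when it changed 1.5-fold or more, its p before adjustment was no higher than 0.001, and its group with the higher level averaged 2 CPM or more. By this rule 1 of the 6 adipokines was called, beside 4.12% of all genes tested in the same comparison. The call ended when any of 5 libraries was left out, chow-fed *Lama4* AKO replicate 3 or HFD-fed *Lama4* AKO replicates 1, 2, 4 or 5, with log2 values of -1.82 to -2.06 and adjusted p of 0.0337 to 0.0489.

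**Figure D1:**
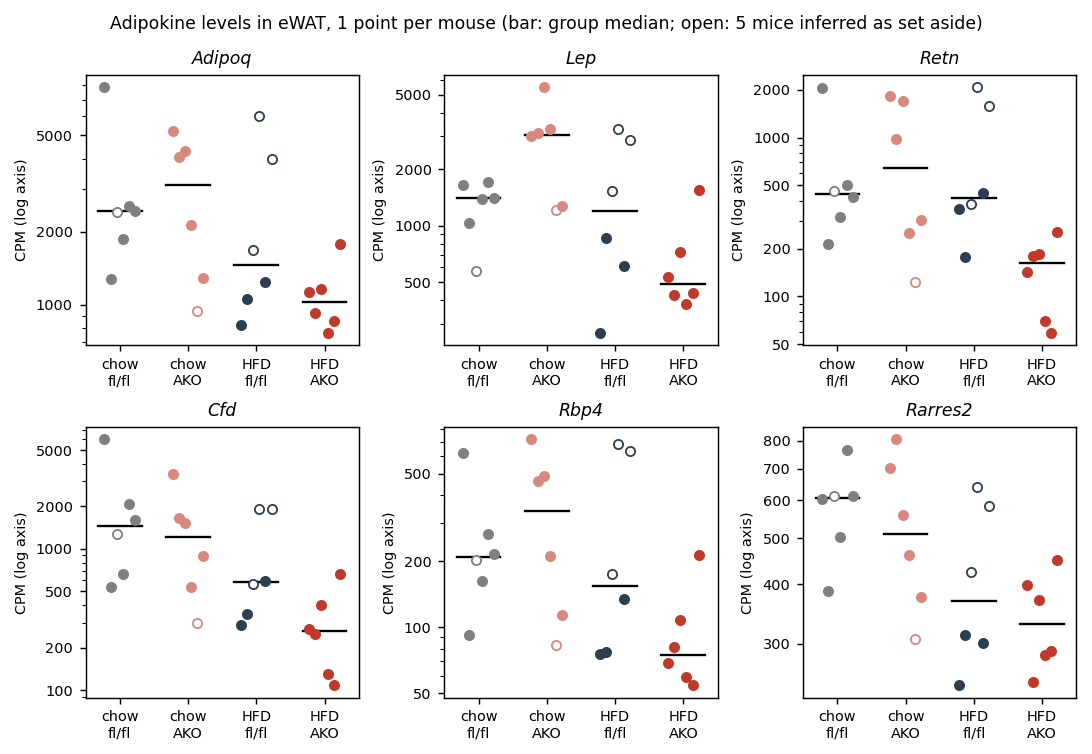
Level of each adipokine in eWAT in CPM on a log axis, 1 point per mouse, for the 4 groups of 6, with the group median as a bar and open points for the 5 mice inferred to have been set aside in the study. HFD-fed Lama4 AKO mice had the lowest median of the 4 groups for each of the 6 genes, and the ranges of neighbouring groups overlap for each gene.

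*Retn*, which encodes resistin, a cysteine-rich hormone that opposes insulin action in mice, showed the greatest log2 difference of the 6 in the same comparison. It lay between 123 and 1843 CPM on chow (median 645) and between 58.7 and 256 CPM on HFD (median 161), and 2 of 6 HFD-fed mice were below the lowest chow-fed mouse. The log2 fold change was -2.54 ± 0.71 (edgeR adjusted p = 0.0230), and its p before adjustment missed the rule for a call. *Cfd*, which encodes adipsin (complement factor D), the protease that starts the alternative complement pathway, lay between 300 and 3388 CPM on chow (median 1213) and 108 and 663 CPM on HFD (median 261). Its log2 fold change was -2.19 ± 0.65 (edgeR adjusted p = 0.0273), and 4 of 6 HFD-fed mice were below the chow-fed range.

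*Rbp4*, which encodes the carrier of retinol in blood, lay between 82.9 and 720 CPM in chow-fed *Lama4* AKO mice (median 339) and 54.4 and 213 CPM in HFD-fed ones (median 74.7). The log2 fold change was -1.84 ± 0.61 (edgeR adjusted p = 0.0370). *Adipoq*, which encodes adiponectin, lay between 940 and 5193 CPM on chow (median 3099) and 764 and 1774 CPM on HFD (median 1026), with a log2 fold change of -1.44 ± 0.51 (edgeR adjusted p = 0.0452). *Rarres2*, which encodes chemerin, a chemoattractant for macrophages and dendritic cells that also acts on fat cells, differed least. Its levels were 307 to 807 CPM on chow (median 511) and 249 to 450 CPM on HFD (median 330), and its log2 fold change was -0.65 ± 0.25 (edgeR adjusted p = 0.0621). The median log2 fold change of the 6 genes was -1.97, beside -0.0031 over all genes tested.

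In the 19 mice kept in the study as inferred, 5 of the 6 adipokines were called lower on HFD in *Lama4* AKO mice, beside 15.7% of all genes tested. *Lep* then had a log2 fold change of -2.26 ± 0.39 and *Retn* of -2.77 ± 0.62, with edgeR adjusted p of 0.00040 and 0.0022. *Adipoq* (-1.63), *Cfd* (-2.40) and *Rbp4* (-2.04) were the other members called, and *Rarres2* (-0.77) was not. Only chow-fed *Lama4* AKO replicate 5 was removed from the groups compared here, and that mouse had the lowest level of all 6 genes among chow-fed *Lama4* AKO mice. Leaving out that mouse alone gave 2 of 6 called, beside 7.8% of genes tested. The rest of the mice set aside were *Lama4* fl/fl mice, whose libraries share the same fit.

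Marker genes of fat cells and of macrophages were measured in the same libraries. The summed level of the 10 adipocyte markers was 23436 to 45421 CPM in chow-fed and 20396 to 34084 CPM in HFD-fed *Lama4* AKO mice, with a median log2 fold change of -0.98, 9 of 10 lower and none called. The summed level of the 11 macrophage markers was 2695 to 9907 CPM in chow-fed and 8377 to 14438 CPM in HFD-fed *Lama4* AKO mice, with a median log2 fold change of 0.94, 10 of 11 higher and none called. Of all genes tested, 4.12% were called in this comparison. In the 19 mice, 2 of 10 adipocyte markers were called lower and 2 of 11 macrophage markers higher, beside 15.7% of genes tested, and over both genotypes 4 of 10 were called lower and 4 of 11 higher, beside 21.4%. No defining marker of either list was at 0 in any library. Whole pads were measured, so fewer fat cells and less RNA per fat cell cannot be told apart, and the part of the markers in the results was not tested. Counts were also scaled to the mean log2 level of the adipocyte markers, which raised the median of all genes by 0.76. *Lep* was then still called, with a log2 fold change of -1.28, beside 1.48% of genes tested. The values of *Retn* (-1.51), *Cfd* (-1.30), *Rbp4* (-0.90) and *Adipoq* (-0.49) remained negative, while *Rarres2* turned to 0.19.

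In *Lama4* fl/fl mice the same diet gave no called adipokine, 0 of 6 beside 0.173% of all genes tested. No member had an unadjusted p under 0.05 with edgeR, DESeq2 or limma-voom, beside 9.01% of genes tested in edgeR. *Lep* lay between 573 and 1717 CPM on chow (median 1405) and between 267 and 3294 CPM on HFD (median 1198). Both the highest and the lowest *Lama4* fl/fl libraries for *Lep* were HFD-fed. The log2 fold change was 0.28 ± 0.49, with an interval of -0.74 to 1.29. *Cfd* had the lowest value, -1.11 ± 0.63, with 537 to 5984 CPM on chow and 288 to 1913 CPM on HFD. *Adipoq* and *Rarres2* had values of -0.32 and -0.48, and *Retn* and *Rbp4* of 0.34 and 0.19, with edgeR adjusted p of 0.591 to 0.938 over the 6.

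These values rested on libraries that stood apart in both groups. Chow-fed *Lama4* fl/fl replicate 1 had 7897 CPM of *Adipoq* against 1280 to 2559 in the rest of its group. Its level of *Cfd* was 5984 CPM against 537 to 2068. Without it the median log2 value of the 6 was 0.29, with 2 of 6 lower, against -0.064 and 3 of 6 in the 24 mice. That library was kept in the 19 mice. HFD-fed *Lama4* fl/fl replicates 4 and 6 had the 2 highest levels of all 6 adipokines in their group, 5968 and 4000 CPM of *Adipoq* against 826 to 1686 in the other 4 and 683 and 637 CPM of *Rbp4* against 75.6 to 174. The same 2 libraries had summed adipocyte markers of 53080 and 46123 CPM and macrophage markers of 2703 and 3525 CPM, against 18969 to 32202 and 7509 to 14724 in the other 4. In the 19 mice, all 6 adipokines had a lower level on HFD in *Lama4* fl/fl mice, with log2 values from -2.41 for *Cfd* to -1.01 for *Rarres2*. None of the 6 met the rule for a call with edgeR, beside 11.8% of all genes tested. With an edgeR adjusted p of at most 0.05 in place of the unadjusted p, 4 were called, beside 22.9%. These were *Adipoq* (0.0261), *Lep* (0.0480), *Cfd* (0.0274) and *Rarres2* (0.0087). Only 3 HFD-fed *Lama4* fl/fl mice remained in that set. The 3 set aside, replicates 3, 4 and 6, had the highest levels of *Adipoq*, *Lep*, *Rbp4* and *Rarres2* in their group. *Lep* lay between 1534 and 3294 CPM in them and between 267 and 862 CPM in those kept. Setting high HFD-fed libraries aside lowers the level on HFD by itself, so the values in the 19 mice are not a separate test of the diet.

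Over both genotypes together, HFD against chow gave 0 of 6 called beside 2.24% of genes tested, with all 6 lower. In edgeR 5 had an unadjusted p under 0.05, beside 35.5% of genes tested. DESeq2 called 1, *Cfd*, and limma-voom called none. The lowest values were *Cfd* at -1.65 ± 0.45 (edgeR adjusted p = 0.0306) and *Retn* at -1.10 ± 0.48 (edgeR adjusted p = 0.107). *Adipoq* (-0.88), *Lep* (-0.91), *Rbp4* (-0.82) and *Rarres2* (-0.56) lay nearer to 0. All 6 were called in the 19 mice, beside 21.4% of genes tested, with log2 fold changes from -2.40 for *Cfd* to -0.89 for *Rarres2*. That set leaves out chow-fed *Lama4* AKO replicate 5, the lowest of its group for all 6 genes. It also leaves out HFD-fed *Lama4* fl/fl replicates 4 and 6, the highest of theirs.

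**Figure D2:**
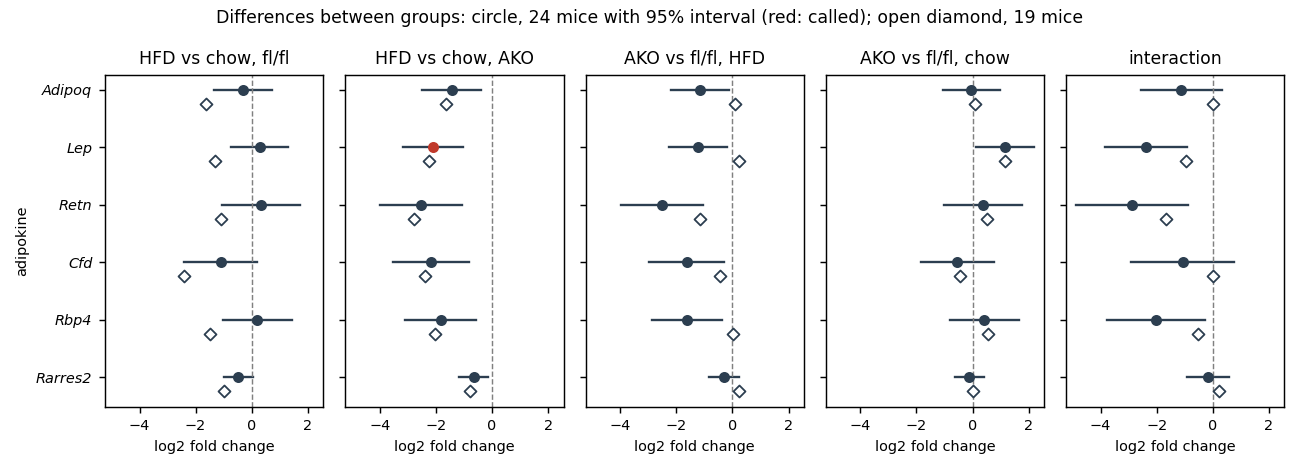
Log2 fold change of each adipokine in the diet, genotype and interaction comparisons, as circles with 95% intervals for 24 mice, in red where called, and as open diamonds for the 19 mice kept in the study as inferred. Lep in Lama4 AKO mice is the called circle, at -2.10, and the diamonds of AKO against fl/fl on HFD lie near or above 0 for all genes but Retn and Cfd.

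Between genotypes on HFD, all 6 adipokines had a lower level in *Lama4* AKO mice, but 0 of 6 were called, beside 0.173% of genes tested. In this comparison 5 had an unadjusted p under 0.05 in edgeR, beside 14.8% of genes tested. DESeq2 called 1 and limma-voom none. *Retn* had the widest difference, with 177 to 2093 CPM in *Lama4* fl/fl mice (median 414) and 58.7 to 256 CPM in *Lama4* AKO mice (median 161). Of the *Lama4* AKO mice, 3 of 6 were below the lowest *Lama4* fl/fl mouse, and the log2 fold change was -2.50 ± 0.71 (edgeR adjusted p = 0.291). *Cfd* had 4 of 6 *Lama4* AKO mice below the *Lama4* fl/fl range and a log2 fold change of -1.62 ± 0.64 (edgeR adjusted p = 0.295). *Rbp4* (-1.61), *Lep* (-1.22), *Adipoq* (-1.16) and *Rarres2* (-0.30) followed.

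In the 19 mice *Adipoq* was at 0.08 ± 0.48, *Lep* at 0.22 ± 0.45, *Rbp4* at 0.03 ± 0.56 and *Rarres2* at 0.25 ± 0.25, opposite in sign to the values in 24 mice. *Retn* stayed negative at -1.13 ± 0.67 (edgeR adjusted p = 0.572), as did *Cfd* at -0.44 ± 0.67. The HFD-fed *Lama4* fl/fl mice set aside had the highest levels of *Adipoq*, *Lep*, *Rbp4* and *Rarres2* in their group. Setting them aside lowers the level in *Lama4* fl/fl mice by itself, so the 19 mice are not a separate test of the genotypes. The adipocyte markers had a median log2 fold change of -0.78 in 24 mice and 0.15 in 19, with none called in either set.

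On chow, 0 of 6 adipokines were called between genotypes, beside 0.113% of genes tested, and DESeq2 and limma-voom also called none. In edgeR and in DESeq2, 1 had an unadjusted p under 0.05, beside 5.85% of genes tested in edgeR. That gene was *Lep*: chow-fed *Lama4* AKO mice had a median of 3073 CPM against 1405 CPM in chow-fed *Lama4* fl/fl mice, and 4 of 6 were above the highest *Lama4* fl/fl mouse. Its log2 fold change was 1.16 ± 0.50 (interval 0.14 to 2.19; edgeR adjusted p = 0.824), and in the 19 mice it was 1.17 ± 0.40 (edgeR adjusted p = 0.462). The interval of *Adipoq* ran from -1.07 to 0.98 around -0.04, and the values of the other 4 lay between -0.55 for *Cfd* and 0.42 for *Rbp4*. Over both diets together, 0 of 6 were called between genotypes, beside 0.0333% of genes tested, and none by DESeq2 or limma-voom. At an unadjusted p under 0.05 in edgeR there were 2, *Retn* (-1.06) and *Cfd* (-1.09), beside 4.6% of genes tested.

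The interaction asks whether the change with HFD differed between *Lama4* AKO and *Lama4* fl/fl mice. No adipokine was called, 0 of 6 beside 0.386% of genes tested, while DESeq2 called 1 and limma-voom none. In edgeR 3 had an unadjusted p under 0.05, beside 15.6% of genes tested. *Lep* had an interaction of -2.38 ± 0.71 on the log2 scale (edgeR adjusted p = 0.235), *Retn* of -2.88 ± 0.97 (edgeR adjusted p = 0.246) and *Rbp4* of -2.03 ± 0.84 (edgeR adjusted p = 0.275). Among the 19 mice they were -0.95 for *Lep*, -1.66 for *Retn* and -0.53 for *Rbp4*. The fall of *Lep* in *Lama4* AKO mice was therefore not shown to differ from its change in *Lama4* fl/fl mice.

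The order of the 4 groups was much the same for each gene. By the median, HFD-fed *Lama4* AKO mice were lowest for all 6 and HFD-fed *Lama4* fl/fl mice next. Chow-fed *Lama4* AKO mice were highest for *Adipoq*, *Lep*, *Retn* and *Rbp4*, and chow-fed *Lama4* fl/fl mice for *Cfd* and *Rarres2*. Neighbours in this order overlapped in range for every gene. Without HFD-fed *Lama4* fl/fl replicates 3, 4 and 6, the order of the HFD-fed groups turned for *Rarres2* only. Its median was then 301 CPM in *Lama4* fl/fl and 330.4 CPM in *Lama4* AKO mice. The order was kept narrowly for *Adipoq* (1052 and 1026 CPM) and *Rbp4* (76.8 and 74.7 CPM). It was also kept for *Lep* (606 and 486 CPM), *Retn* (357 and 161 CPM) and *Cfd* (346 and 261 CPM).

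The spread within groups was wide. Over all 24 libraries *Cfd* ranged from 108 to 5984 CPM, *Retn* from 58.7 to 2093 and *Lep* from 267 to 5526, while *Rarres2* stayed between 245 and 807. The SD of log2 CPM within a group ran from 0.33 for *Rarres2* in chow-fed *Lama4* fl/fl and in HFD-fed *Lama4* AKO mice to 1.62 for *Retn* in chow-fed *Lama4* AKO mice, beside a median of 0.42 over the genes tested. HFD-fed *Lama4* AKO mice had the lowest SD of the 4 groups for *Adipoq* (0.43), *Retn* (0.85), *Cfd* (0.98), *Rbp4* (0.73) and *Rarres2* (0.33), but not for *Lep*, whose SD was lowest in chow-fed *Lama4* fl/fl mice (0.59).

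**Figure D3:**
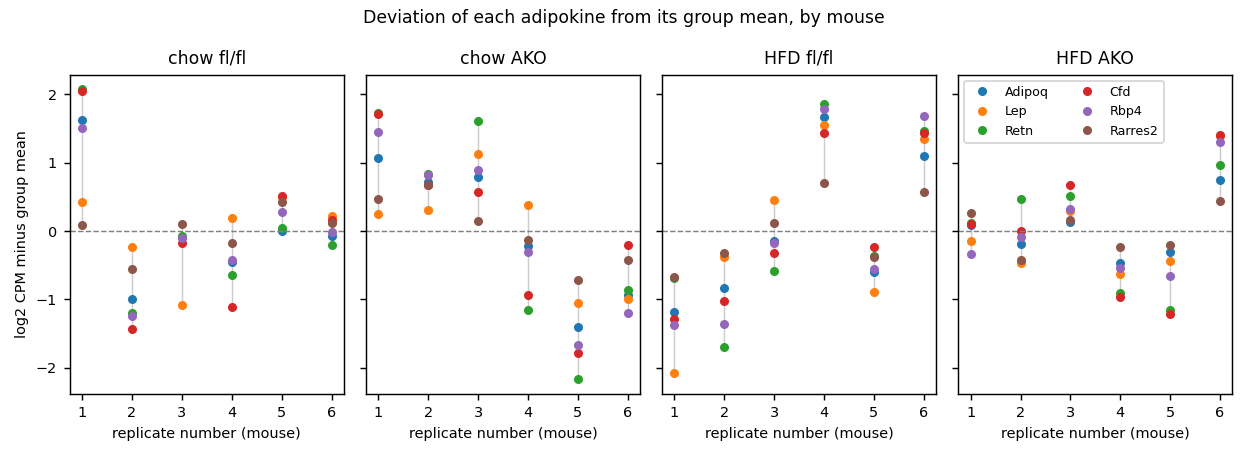
Log2 CPM of each adipokine minus its group mean, by mouse, in the 4 groups; the numbers name mice and have no order. In most mice the 6 points fall on the same side of the dashed line at 0, as in HFD-fed Lama4 fl/fl replicates 4 and 6, where all lie above it.

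Within groups, the adipokines of a mouse were high or low together, but many other genes moved with them as closely. Among 12473 genes ranked by closeness to *Adipoq*, *Rbp4* stood at 1, *Retn* at 125, *Cfd* at 202, *Rarres2* at 550 and *Lep* at 1065. All 6 adipokines lay on the same side of their group means in 16 of 24 mice, above in 8 and below in 8, and 5 of 6 did so in 4 more. After the group means were removed, each of the 15 pairs was positively correlated over the 24 mice, with Pearson's r of 0.65 to 0.98 and Spearman's rho of 0.64 to 0.97 (permutation test with 100000 permutations within groups, two-sided; the highest p of these 15 pairs was 0.0033 after adjustment over the 33 relations examined). *Adipoq* and *Rbp4* were the closest pair (r = 0.98, rho = 0.97, adjusted p = 2.4e-05 and 2.2e-05 by permutation, from the smallest p that they can give, 1e-05) and *Lep* and *Retn* the least close (r = 0.65, rho = 0.64, adjusted p = 0.0028 and 0.0033 by permutation). Without the 2 libraries farthest from the median of the first gene of a pair, r was 0.62 to 0.98. Within single groups of 6, all 15 pairs were positive in each group, with medians of 0.67 in chow-fed *Lama4* fl/fl, 0.89 in chow-fed *Lama4* AKO, 0.94 in HFD-fed *Lama4* fl/fl and 0.86 in HFD-fed *Lama4* AKO mice.

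The same deviations followed the marker lists. Every adipokine was higher in mice with a higher mean log2 level of adipocyte markers, from *Adipoq* (r = 0.98, rho = 0.95) to *Rarres2* (r = 0.81, rho = 0.85), and lower in mice with higher macrophage markers, from *Adipoq* (r = -0.93, rho = -0.88) to *Rarres2* (r = -0.64, rho = -0.72), with permutation adjusted p of at most 0.0047 for these 12 relations. *Lep* had r = 0.83 with adipocyte markers and -0.73 with macrophage markers. Mesothelial markers were less close: r was 0.55 for *Retn*, 0.54 for *Cfd* and 0.44 for *Adipoq* (permutation adjusted p = 0.0140, 0.0142 and 0.0458), and 0.41 for *Rbp4*, 0.34 for *Rarres2* and -0.02 for *Lep* (permutation adjusted p = 0.0631, 0.147 and 0.923). Without the 2 libraries farthest from the median of *Adipoq*, its r with mesothelial markers was 0.30. All of these levels share the total of their library, so a higher level of some transcripts lowers that of others.

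**Figure D4:**
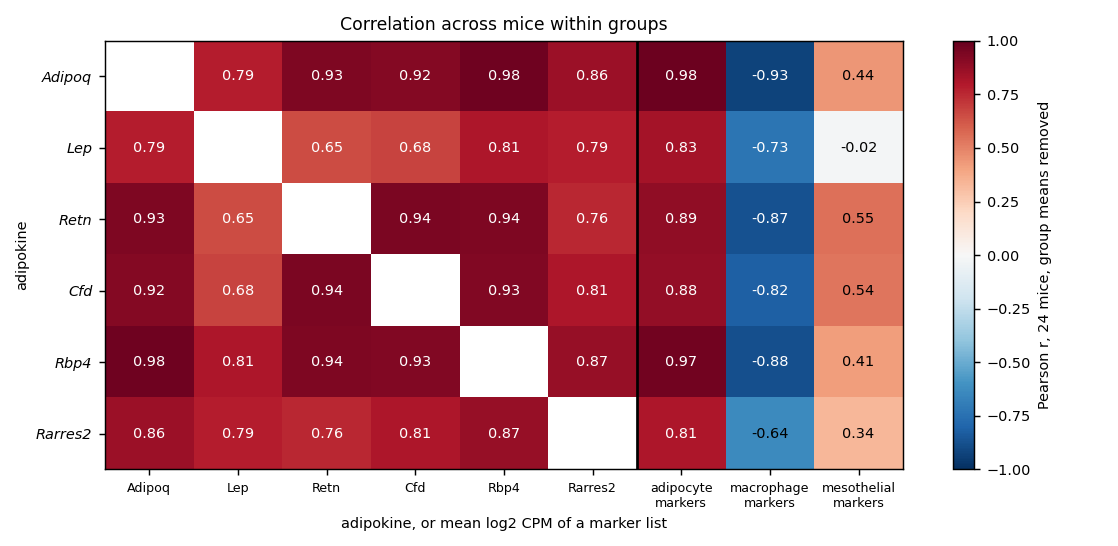
Pearson's r over 24 mice, with group means removed, between each adipokine and the other 5 and the mean log2 CPM of 3 marker lists; red is positive and blue negative. All pairs of adipokines and the adipocyte column are positive, from 0.65 upward, the macrophage column is negative from -0.64 to -0.93, and Lep is at -0.02 with mesothelial markers.

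The genes whose deviations were most like those of each adipokine were named from 12473 genes with a mean of at least 2 CPM, as a description. For *Adipoq* these were *Rbp4* (r = 0.98), *Plin1*, which coats lipid droplets, *Pex11a*, *Cidec*, another lipid droplet protein, and *Thnsl2* (r = 0.97). For *Rbp4* they were *Adipoq*, *Gstz1*, *Cdo1*, *Tshr*, the thyrotropin receptor, and *Amy1* (r = 0.97 to 0.98). For *Retn* they were *Cdo1*, *2610016A17Rik*, *Thrsp*, *Amy1* and *Gstz1* (r = 0.96 to 0.98), 3 of them also on the list of *Rbp4*. For *Cfd* they were *Ndrg2*, *Timp4*, *Mogat1*, *Zfp185* and *Thrsp* (r = 0.94 to 0.95).

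*Lep* and *Rarres2* had other neighbours. For *Lep* these were *Cryab*, a small heat shock protein, *Lpgat1*, *Sncg*, *Zhx1* and *Mpp7* (r = 0.95 to 0.97), and for *Rarres2* *Pkia*, *Prxl2b*, *Nnmt*, *Gm15498* and *Sfxn2* (r = 0.94 to 0.96). None of these was among the nearest 5 of another adipokine. The most negative genes were *Vat1* for both *Adipoq* (r = -0.98) and *Rbp4* (-0.96), *Isyna1* for *Lep* (-0.95), *Gpr137b* for *Retn* (-0.96), *Flvcr1* for *Cfd* (-0.94) and *Coro2a* for *Rarres2* (-0.91). Ranked by closeness to *Lep*, the other adipokines stood between 669 for *Rbp4* and 2074 for *Retn*.

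Of 15 listed genes for receptors of the adipokines or of complement fragments, 13 were tested. With HFD in *Lama4* AKO mice none was called, beside 4.12% of all genes tested. Their log2 fold changes were -1.93 to 1.55, 4 of them negative, with a median of 0.64 beside -0.0031 over all genes. *Lepr*, the leptin receptor, had the lowest value, -1.93 ± 0.47 (edgeR adjusted p = 0.0170), and it missed the rule because it had a mean of 0.956 CPM in chow-fed and 0.245 CPM in HFD-fed *Lama4* AKO mice. The adiponectin receptors *Adipor1* and *Adipor2* had values of 0.42 and -0.65 and *Cdh13*, which binds large adiponectin complexes, of -0.91. *Cmklr1*, the chemerin receptor, was at -0.12. *Stra6l*, a retinol transporter that binds RBP4, was at 1.55 and *C5ar2* at 1.49 (edgeR adjusted p = 0.0344 and 0.0355). With the 19 mice, 3 of the 13 were called higher and none lower, beside 15.7% of genes tested, and over both genotypes 5 were called higher and 1 lower, beside 21.4%.

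Of 9 genes for the assembly and release of adiponectin, 8 were tested and 1 was called lower with HFD in *Lama4* AKO mice, beside 4.12% of all genes tested. The called gene was *Pdia4*, a disulfide isomerase of the endoplasmic reticulum, which fell from a median of 33.4 CPM to 10.1 CPM (log2 -1.55 ± 0.36, edgeR adjusted p = 0.0150). *Pdia3* was at -0.71, *Gstk1* at -0.77, and *Erp44* and *Ero1l*, which retain and release adiponectin, at 0.19 and 0.33. The median of the 8 was -0.09. Of 11 genes of the alternative complement pathway, in which adipsin cleaves factor B, 8 were tested and none was called in that comparison, with *Cfb* at -0.56, *C3* at 0.38 and a median of 0.04.

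Of 13 regulators of adipokine transcription, none was called with HFD in *Lama4* AKO mice, beside 4.12% of all genes tested, and 11 had a negative value, with a median of -0.43. *Cebpa*, a C/EBP factor of mature fat cells, was at -0.69 ± 0.19 (edgeR adjusted p = 0.0224) and *Pparg* at -0.43 ± 0.51. With the 19 mice, 1 of the 13 was called lower in that comparison, beside 15.7% of genes tested, and 1 higher between genotypes on chow, beside 0.209%. Among 31 other secreted factors, 26 were tested and 1 was called lower, *Cck*, which encodes the gut and brain peptide cholecystokinin. *Cck* met the rule for a call in both genotypes, with a log2 fold change of -3.35 in *Lama4* fl/fl mice (edgeR adjusted p = 0.307) and of -2.99 in *Lama4* AKO mice (edgeR adjusted p = 0.0203). Of all genes tested, 0.173% were called with HFD in *Lama4* fl/fl and 4.12% in *Lama4* AKO mice. Of 16 genes with the C1q domain of adiponectin, 11 were tested and none was called in *Lama4* AKO mice, beside the same 4.12%. Over both genotypes 1 was called, beside 2.24% of genes tested: *Col8a2*, a collagen VIII chain, rose by 1.46 ± 0.39 (edgeR adjusted p = 0.0286). Of 3 other genes of the resistin family, 2 were tested: *Retnla*, made by macrophages and other cells, was at -1.89 ± 0.75 and *Retnlg* at -0.95 ± 0.79 with HFD in *Lama4* AKO mice, and neither was called. With the 19 mice, 3 of the 26 other secreted factors were called higher and 3 lower in *Lama4* AKO mice, and 2 of the 11 C1q domain genes higher and 1 lower, beside 15.7% of genes tested.

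The other cell type lists gave 2 calls with HFD in *Lama4* AKO mice, beside 4.12% of all genes tested. *Msln*, 1 of 8 mesothelial markers, fell by 2.36 on the log2 scale (edgeR adjusted p = 0.0188), where the summed level of the list was 28 to 161 CPM on chow and 10.7 to 59.4 CPM on HFD. *Pdgfra*, 1 of 7 stromal progenitor markers, rose by 0.69 (edgeR adjusted p = 0.0210), where the sum was 3637 to 6374 CPM on chow and 5551 to 6707 CPM on HFD. None of 5 endothelial, 6 lymphocyte, 5 brown adipocyte and 5 red blood cell markers was called in any comparison of the 24 mice, nor was the 1 of 5 muscle markers that was tested. In those comparisons 0.0333% to 4.12% of all genes tested were called. With the 19 mice and HFD in *Lama4* AKO mice, 2 of 5 endothelial and 1 of 8 mesothelial markers were called lower and 2 of 7 stromal progenitor markers higher, beside 15.7% of genes tested. In *Lama4* fl/fl mice 2 stromal progenitor markers were called higher, beside 11.8%. Over both genotypes 3 endothelial markers and 1 brown adipocyte marker were called lower and 3 stromal progenitor markers higher, beside 21.4%. The part of these cells in the adipokine values was not tested.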

How the data were processed

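QuantSeq libraries were made from the eWAT of 24 male mice, 6 in each of 4 groups, grouped by genotype and diet as labelled. The authors deposited a table of raw read counts for each gene in each library and a second table whose normalized signal is the same counts divided by 1 size factor per library (0.460 to 1.36). The deposited signal table was used for symbols only. The submitters' processing notes name R 4.0.3, DESeq2 1.30 and the builds GRCm38 and mm10, and the study's methods name Rsubread for the counts; the settings of the counter are not given in the sources used here. Both tables hold 16730 genes with a total of at least 72 counts each, so genes below that were not analysed here.

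The tests used edgeR 4.0.16 under R 4.3.3. A gene entered when 3 or more libraries reached 1 CPM. After TMM scaling, all 24 libraries shared 1 quasi-likelihood fit of the 4 group means. P-values were adjusted over the 15020 genes tested. Log2 CPM used a prior count of 2. The labels name separate mice, and the 60 pairs of libraries within groups correlated at 0.859 to 0.984 and differed beyond counting error. Relations across mice used 100000 permutations within groups, with adjustment over 33 relations. Alternatives used limma 3.58.1 and DESeq2 1.42.0, other scalings and filters, and sets of mice; the set of 19 mice scaled to adipocyte markers, or with adjusted p-values, was added after seeing the data. The fits were tested on simulated data. Gene structures came from release M21 of GENCODE.

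Named in the text are the 6 adipokines, *Lama4*, the members of the 17 gene lists that were called, some members of the receptor, assembly, complement and transcription lists and of the resistin family, and for each adipokine the 5 genes closest to it and the 1 most opposed. *Cebpa*, *Pparg*, *Retnla* and *Retnlg* were named after their values were seen. The members and lists were chosen with earlier results of these data known.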

Additional observations from a re-analysis of the deposited data

How the results depend on the processing

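Each log2 fold change and each count of adipokines called was computed again under other tools, scalings, filters and sets of mice; the 19 mice scaled to adipocyte markers, or called at an adjusted p of at most 0.05, were chosen after seeing the data. Filtering, RLE size factors and the fold criterion moved no count of adipokines called. The cause was not tested for any value below. Depth limits little here, since the lowest count was 486.

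With HFD in *Lama4* AKO mice, where 1 adipokine was called, DESeq2 called 2 (beside 8.75% of all genes), limma-voom with quality weights 5 (23.9%), and an adjusted p of at most 0.05 in place of the p before adjustment 5 (16.1%). The 19 mice gave 5 with edgeR (15.7%) and with limma-voom (15.9%), 2 when scaled to adipocyte markers (21.9%) and 6 by adjusted p (27.7%). Leaving out 1 library gave 0 to 2: *Lep* was lost without chow-fed *Lama4* AKO replicate 3 or HFD-fed *Lama4* AKO replicates 1, 2, 4 or 5, and *Retn* was gained without chow-fed *Lama4* fl/fl replicate 1 or chow-fed *Lama4* AKO replicates 4, 5 or 6. With HFD in *Lama4* fl/fl mice (0 called), the 19 mice gave 1 with limma-voom (12.4%) and 4 by adjusted p (22.9%). Over both genotypes (0 called), scaling to adipocyte markers (2.09%), DESeq2 (4.2%), quality weights (6.1%) and adjusted p (6.02%) gave 1 each, and the 19 mice 6 with edgeR (21.4%), 5 with limma-voom (21.7%), 2 when scaled (35%) and 6 by adjusted p (29.9%). Leaving out 1 library gave 0 to 1, *Cfd*, without chow-fed *Lama4* fl/fl replicates 2 or 4, chow-fed *Lama4* AKO replicates 4 or 5, HFD-fed *Lama4* fl/fl replicates 4 or 6 or HFD-fed *Lama4* AKO replicate 6. Between genotypes on HFD (0 called), DESeq2 (0.539%), quality weights (3.5%) and a fit of the groups compared alone (0.173%) gave 1 each, and leaving out 1 library 0 to 1, *Retn*, without chow-fed *Lama4* fl/fl replicate 1 or HFD-fed *Lama4* fl/fl replicate 2. For the interaction (0 called), DESeq2 gave 1 (0.985%), quality weights 2 (9.04%) and leaving out 1 library 0 to 1, *Retn* when chow-fed *Lama4* fl/fl replicate 1 was left out, *Lep* without HFD-fed *Lama4* fl/fl replicate 1 or HFD-fed *Lama4* AKO replicate 6. A fit of the groups compared alone gives no value for the comparisons over both diets or genotypes or for the interaction.

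Signs turned as follows, on the log2 scale. With limma-voom, *Lep* (-0.097) and *Rbp4* (-0.14) turned with HFD in *Lama4* fl/fl mice, and *Lep* (0.031) between genotypes over both diets. With quality weights, *Adipoq* turned with HFD in *Lama4* fl/fl mice (0.056) and between genotypes on chow (0.41). Scaled to adipocyte markers, *Rarres2* turned with HFD in *Lama4* AKO mice (0.19), between genotypes on HFD (0.28) and in the interaction (0.59), and *Lep* between genotypes over both diets (0.21). In the 19 mice, under either rule for a call, *Lep* (-1.32), *Retn* (-1.11) and *Rbp4* (-1.51) turned with HFD in *Lama4* fl/fl mice. Between genotypes *Adipoq* (0.082), *Lep* (0.22), *Rbp4* (0.027) and *Rarres2* (0.25) turned on HFD, *Adipoq* (0.081) and *Rarres2* (0.016) on chow, and *Adipoq* (0.082), *Lep* (0.70), *Rbp4* (0.29) and *Rarres2* (0.13) over both diets, and in the interaction *Adipoq* (0.0015), *Cfd* (0.0070) and *Rarres2* (0.23). With limma-voom in the 19 mice, *Lep* (-1.45), *Retn* (-0.74) and *Rbp4* (-1.29) turned with HFD in *Lama4* fl/fl mice, *Adipoq* (0.042), *Lep* (0.19) and *Rarres2* (0.22) between genotypes on HFD, *Adipoq* (0.19) and *Rarres2* (0.0067) on chow, *Adipoq* (0.12), *Lep* (0.62), *Rbp4* (0.23) and *Rarres2* (0.12) over both diets, and *Rarres2* (0.22) in the interaction. Scaled to adipocyte markers in the 19 mice, *Lep* (-0.64) and *Rbp4* (-0.54) turned with HFD in *Lama4* fl/fl mice and *Rarres2* (0.19) in *Lama4* AKO mice, *Adipoq* (0.036), *Lep* (0.13) and *Rarres2* (0.22) between genotypes on HFD, *Adipoq* (0.011) on chow, *Adipoq* (0.024), *Lep* (0.49) and *Rbp4* (0.18) over both diets, and *Adipoq* (0.025) and *Rarres2* (0.48) in the interaction.

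Leaving out 1 library turned the sign of some values. With HFD in *Lama4* fl/fl mice the ranges were -0.81 to 0.22 for *Adipoq*, -0.082 to 0.50 for *Lep*, -0.17 to 1.13 for *Retn* and -0.24 to 0.66 for *Rbp4*. Between genotypes on chow they were -0.27 to 0.50 for *Adipoq*, -1.04 to 0.17 for *Cfd* and -0.27 to 0.0080 for *Rarres2*, and over both diets -0.24 to 0.15 for *Lep*. The relation of *Lep* with mesothelial markers, r = -0.022, was 0.019 without chow-fed *Lama4* AKO mice and 0.033 without HFD-fed ones.

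Replicate numbers did not pair the mice: over 36 pairs of libraries of the same number, the deviations correlated at -0.53 to 0.71, with a median of 0.0011 and 15 over 0.1. With the replicate number as a block, *Lep* with HFD in *Lama4* AKO mice was at -2.22 and remained the 1 adipokine called, *Lep* in *Lama4* fl/fl mice turned to -0.042 and *Adipoq* between genotypes on chow to 0.019, and 0 were called in the other comparisons. No sample lay past Dixon's limit for 6 values in the 24 tests of a gene in a group.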
